A study of Mus musculus with 24 samples.

Results

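The transcripts of glycolysis and of the pentose phosphate pathway were followed in mouse bone marrow-derived macrophages through 34 genes listed by symbol. The list held the glucose transporters and hexokinases, the enzymes of upper and lower glycolysis, the genes that decide the fate of pyruvate and lactate, and the pentose phosphate enzymes. A gene was measured through the probe sets of Affymetrix mouse genome arrays that carried its symbol alone (Pkm under its older symbol Pkm2), which gave 31 of the 34 genes and 68 probe sets. Gpi1, Eno1 and G6pdx had no such probe set in the annotation used and were not analysed here. A filter on low ratios kept 67 probe sets, so all 31 genes were tested among the 17738 genes of the array.

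Glycolysis splits glucose into pyruvate and yields ATP without oxygen. The pentose phosphate pathway branches off at glucose 6-phosphate and yields NADPH and ribose phosphates. In macrophages, strong glycolytic flux is known from cells activated by bacterial products, whereas the IL-4-activated, alternatively activated state is known for arginase expression and for a greater use of fatty acid oxidation, although these cells also take up and use glucose. Several steps are encoded by more than 1 gene, and the isoforms differ between tissues and in how they are regulated.

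Marrow came from 3 Pparg+/- LysCre mice and 3 Pparg fl/- LysCre mice on the C57Bl/6 strain, with no age stated. All 6 animals carried 1 lost Pparg allele and LysCre, a Cre recombinase driven by the lysozyme gene in myeloid cells, and the control genotype kept 1 working Pparg copy. Cells were cultured for 10 days in 20 ng/ml M-CSF, IL-4 being absent or present at 20 ng/ml, and with vehicle (DMSO:ethanol) or 1 µM rosiglitazone (RSG), an agonist of the nuclear receptor PPARγ. Each mouse gave 1 culture and 1 array to each of the 4 conditions, which made 8 groups of 3 arrays and 24 arrays in all.

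The deposited value is a ratio, for most probe sets the signal over its median across the 24 arrays. The median ratio was within 0.005 of 1 for 82.2% of all probe sets and for 66 of the 68 read here, and what the others were divided by is not known. A constant divisor leaves a difference between groups on the log2 scale unchanged. A ratio can be compared between groups for 1 gene, not between genes, and it does not tell how bright a spot was. A gene was taken as the mean log2 ratio of its probe sets, and its ratio on an array is 2 to that power. It was called when the limma test gave a Benjamini-Hochberg adjusted p under 0.05 over all genes and the change was at least 1.5-fold. "Rose" and "fell" are used of called genes alone, and changes are given on the log2 scale with the standard error (SE) of the fit.

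The arrays of IL-4 cultures carried the IL-4 markers Retnla, Chil3, Arg1 and Mgl2, which rose in all 4 IL-4 comparisons. The PPARγ targets Angptl4 and Fabp4 both rose with RSG in Pparg+/- cultures with IL-4. In Pparg fl/- cultures with IL-4, Angptl4 rose and Fabp4 was not called. The mean Angptl4 ratio with IL-4 was 0.687 with vehicle and 6.02 with RSG in Pparg+/- cultures, and 0.225 and 2.71 in Pparg fl/- cultures. The median RSG change of the 2 genes with IL-4 was 2.1 in Pparg+/- and 2.21 in Pparg fl/- cultures. The difference of this change between genotypes was called for neither gene. Without IL-4 neither gene was called with RSG in either genotype. With IL-4 and RSG, 1 of these 2 genes was called lower in Pparg fl/- than in Pparg+/- cultures. The single Pparg probe set was not lower in Pparg fl/- cultures. Its ratio with vehicle and no IL-4 lay between 0.51 and 0.579 in Pparg+/- and between 0.578 and 1.09 in Pparg fl/- cultures. With IL-4 and RSG it was higher in Pparg fl/- (1.93 to 2.81) than in Pparg+/- cultures (0.895 to 1.09), a called difference of 1.29 ± 0.25 (limma adjusted p = 0.027), and in the other 3 genotype comparisons the difference was 0.48 to 0.92 and not called. Whether it reads the deleted part is not given in the sources used here, so it checks no label. Over all genes, the IL-4 vehicle array of mouse 4 (Pparg fl/-) stood farthest from its group, with a residual SD of 0.629 on the log2 scale where the others had 0.527 to 0.597, and without it the pathway genes called with IL-4 and vehicle in Pparg fl/- cultures numbered 9 in place of 8. The 3′ and 5′ Gapdh probe sets differed by −0.0756 to 0.107 on the log2 scale over all arrays. Each was centred on its own median ratio, so this compares the arrays with each other and does not measure RNA quality as such.

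IL-4 moved a part of the pathway in both directions. Genes of glucose entry and of upper glycolysis made up 7 of 10, 7 of 8, 5 of 7 and 8 of 11 genes called in the 4 comparisons. These 2 groups held 5 and 8 of the 31 genes tested. In Pparg+/- cultures with vehicle, 7 of 31 genes rose and 3 fell, against 8.29% and 6.84% of all genes (15.1% in either direction). In Pparg fl/- cultures with vehicle 5 rose and 3 fell, against 8.8% and 8.01% (16.8% in all). With RSG, 3 rose and 4 fell in Pparg+/- cultures, against 7.05% and 6.37% of all genes (13.4% in all). In Pparg fl/- cultures with RSG 6 rose and 5 fell, against 7.97% and 7.21% (15.2% in all). The share of pathway genes called was thus 32.3%, 25.8%, 22.6% and 35.5%. The median log2 change of the 31 genes was 0.22, 0.11, 0.12 and 0.24, beside 0.09, 0.12, 0.11 and 0.11 over all genes. Their median absolute log2 change was 0.40, 0.42, 0.35 and 0.33, beside 0.41, 0.43, 0.39 and 0.41 over all genes. The higher share of calls thus did not come with larger typical changes. With array medians centred the calls split 5 up and 4 down in Pparg+/- and 5 up and 5 down in Pparg fl/- cultures with vehicle.

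**Figure D1:**
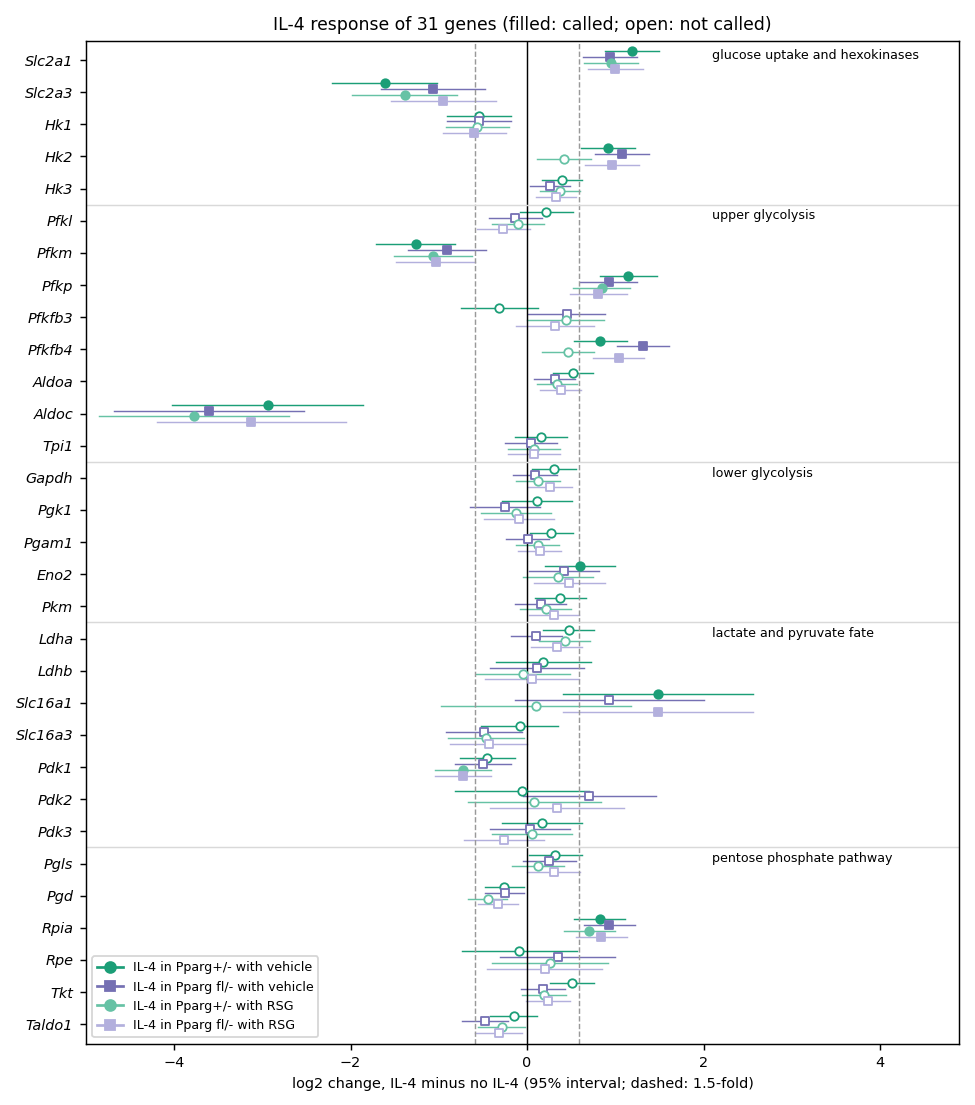
Log2 change with IL-4 of 31 genes (x axis, with 95% intervals) in 4 comparisons (green, Pparg+/-; purple, Pparg fl/-; paler, with RSG), ordered by step of the pathway; filled symbols are called genes and dashed lines mark 1.5-fold. Slc2a1, Pfkp and Rpia lie to the right and Slc2a3, Pfkm and Aldoc to the left of the dashed lines in all 4 comparisons, while Tpi1, Gapdh, Pgk1, Pgam1 and Pkm lie between them.

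The cultures with IL-4 also differed in markers of other cells. Of 9 proliferation markers measured, 9 fell in each of the 4 comparisons, and their mean log2 ratio ranged from 0.72 to 2.47 on arrays without IL-4 and from −3.65 to −2.48 on arrays with it. Of 9 neutrophil markers, 6, 8, 6 and 8 fell, with mean log2 ratios of 0.45 to 1.58 without IL-4 and −3.57 to −2.73 with it. S100a9 was at the lowest ratio of the table on all 3 arrays of Pparg fl/- cultures with IL-4 and RSG, the one marker of these lists at that ratio throughout a group. Of 10 stromal markers, 6, 8, 6 and 7 fell, with mean log2 ratios of 0.16 to 2.12 without IL-4 and −1.75 to −0.88 with it. Of 10 macrophage markers, 4, 5, 2 and 3 fell and at most 1 rose, with mean log2 ratios of 0.08 to 0.72 without IL-4 and −0.59 to 0.14 with it. In RNA of whole cultures, fewer cells of a type and less RNA per cell cannot be told apart, and the part of these markers in the changes below was not tested.

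The transcripts of the 2 glucose transporters moved in opposite directions. Slc2a1 encodes GLUT1, the widespread glucose transporter. Its ratio was 0.643, 0.782 and 0.653 in the vehicle cultures of the 3 Pparg+/- mice and 1.49, 1.75 and 1.49 with IL-4. In Pparg fl/- cultures it was 0.846, 0.781 and 0.752 without and 1.35, 1.89 and 1.38 with IL-4. The cultures with IL-4 all lay above those without, and Slc2a1 rose by 1.19 ± 0.15 and 0.94 ± 0.15 (SE, n = 3 mice a group; 2.28- and 1.92-fold; limma adjusted p = 8.2e-06 and 9.1e-05). With RSG it was 0.653, 0.733 and 0.615 without and 1.13, 1.35 and 1.39 with IL-4 in Pparg+/- cultures, and 0.87, 0.701 and 0.715 against 1.51, 1.78 and 1.29 in Pparg fl/- cultures, again with no overlap. Slc2a1 rose here by 0.95 and 1.00 (limma adjusted p = 0.00011 and 5.8e-05).

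Slc2a3 encodes the high-affinity transporter GLUT3. Its ratio was 1.48, 1.11 and 1.64 with vehicle and 0.393, 0.506 and 0.469 with IL-4 in Pparg+/- cultures, and 1.63, 1.28 and 1.32 against 0.512, 0.618 and 0.941 in Pparg fl/- cultures. With RSG it was 1.17, 1.49 and 0.904 against 0.265, 0.596 and 0.561, and 1.4, 1.36 and 1.38 against 0.662, 0.819 and 0.669. Every group with IL-4 lay below its control, although the highest culture with IL-4 (0.941) exceeded the lowest without it (0.904). Slc2a3 fell, with log2 changes of −1.61, −1.07, −1.38 and −0.95 in Pparg+/- with vehicle, Pparg fl/- with vehicle, Pparg+/- with RSG and Pparg fl/- with RSG, the order used from here on (SE 0.28; limma adjusted p = 0.00033, 0.0093, 0.0016 and 0.022). Of its 3 probe sets, 2 fell in all 4 comparisons, with changes of −2.09 to −1.10, and the third, with a wider spread, was not called and stood at 0.59 in the last one. A further probe set of Slc2a3 did not pass the filter on low ratios, and with no such filter the changes were −0.57, −0.71 and −0.75 in the last 3 comparisons (limma adjusted p = 0.27, 0.18 and 0.15). The Slc2a3 call in Pparg fl/- cultures was also lost without mouse 4 (−0.77 with vehicle and −0.89 with RSG, limma adjusted p = 0.16 and 0.12) or mouse 5 (−1.08 and −1.06, 0.078 and 0.087), and with RSG without mouse 6 (−0.90, 0.12).

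The hexokinases, which trap glucose as glucose 6-phosphate, differed from each other. Hk2 encodes the inducible hexokinase II. Its ratio was 0.949, 0.741 and 0.751 with vehicle and 1.43, 1.73 and 1.42 with IL-4 in Pparg+/- cultures. In Pparg fl/- cultures it was 0.924, 0.867 and 0.842 against 1.45, 2.31 and 1.9, and with RSG 0.914, 0.834 and 0.865 against 1.55, 1.96 and 1.6. Groups did not overlap, and Hk2 rose by 0.91, 1.08 and 0.96 in these comparisons (SE 0.15; 1.88-, 2.11- and 1.95-fold; limma adjusted p = 0.00013, 1.9e-05 and 7.7e-05). In Pparg+/- cultures with RSG the ratio was 0.793, 0.826 and 0.855 without and 1.05, 1.15 and 1.11 with IL-4, a change of 0.42 (adjusted p = 0.053, limma) that was not called, although the cultures did not overlap.

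Hk1, the housekeeping hexokinase, stood between −0.54 and −0.60 in all 4 comparisons (SE 0.17) and passed both thresholds in Pparg fl/- cultures with RSG (1.51-fold, limma adjusted p = 0.017), with ratios of 1.47, 1.4 and 1.11 against 0.894, 0.809 and 0.91. That call was lost without mouse 4 or mouse 5 (log2 −0.54 and −0.50, adjusted p = 0.071 and 0.16). In each comparison 1 of the 2 Hk1 probe sets fell (−0.73, −0.59, −0.77 and −0.76) and the other was not called (−0.36, −0.50, −0.35 and −0.43). Hk3, the myeloid hexokinase, stood between 0.26 and 0.40 and was not called. Its ratios ran from 0.727 to 1.06 without IL-4 and from 0.944 to 1.3 with it.

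Of the subunit genes of phosphofructokinase, the committed step of glycolysis, Pfkp rose, Pfkm fell and Pfkl was not called, and their amounts relative to each other cannot be read from the ratios. Pfkp, the platelet-type subunit, had ratios of 0.7, 0.797 and 0.556 with vehicle and 1.58, 1.42 and 1.49 with IL-4 in Pparg+/- cultures, and 0.897, 0.724 and 0.748 against 1.3, 1.61 and 1.58 in Pparg fl/- cultures. With RSG they were 0.639, 0.735 and 0.741 against 0.984, 1.39 and 1.48, and 0.889, 0.766 and 0.741 against 1.3, 1.46 and 1.42. All 12 arrays with IL-4 lay above the other 12. Pfkp rose by 1.15, 0.93, 0.84 and 0.81 (SE 0.15; limma adjusted p = 1.9e-05, 0.00016, 0.00053 and 0.00069), and 2 of its 3 probe sets rose in every comparison, the third in the first one.

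Pfkm, the muscle-type subunit, was read by 1 probe set. Its ratio was 1.83, 1.29 and 1.74 against 0.915, 0.549 and 0.592 in Pparg+/- cultures with vehicle, and 1.41, 1.64 and 1.28 against 0.676, 0.921 and 0.717 in Pparg fl/- cultures. With RSG it was 1.38, 1.23 and 1.52 against 0.775, 0.603 and 0.598, and 1.08, 1.28 and 1.61 against 0.608, 0.53 and 0.793. All 12 arrays with IL-4 lay below the other 12, and Pfkm fell, with changes of −1.26, −0.91, −1.07 and −1.04 (SE 0.21; limma adjusted p = 0.00021, 0.0035, 0.0011 and 0.0013). Pfkl, the liver-type subunit, was not called, with changes from −0.27 to 0.22.

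The bifunctional enzymes that set the level of fructose 2,6-bisphosphate, the activator of phosphofructokinase, also differed. Pfkfb4 had ratios of 0.761, 0.642 and 0.685 with vehicle and 1.13, 1.19 and 1.41 with IL-4 in Pparg+/- cultures, and 0.605, 0.629 and 0.696 against 1.4, 1.89 and 1.56 in Pparg fl/- cultures. With RSG they were 0.8, 0.8 and 0.904 against 1.21, 1.1 and 1.16, and 0.584, 0.631 and 0.818 against 1.26, 1.32 and 1.57. All 12 arrays with IL-4 lay above the other 12. Pfkfb4 rose by 0.83, 1.32 and 1.04 in the comparisons other than Pparg+/- with RSG (SE 0.14; limma adjusted p = 0.00023, 1.3e-06 and 2.2e-05), and there its change of 0.47 had an adjusted p of 0.025 in limma but stayed under 1.5-fold. Pfkfb3 was not called, at −0.31, 0.45, 0.44 and 0.31.

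Aldolase C, the brain-type isoform, had the largest change of the 31 genes in each IL-4 comparison. The Aldoc ratio was 1.72, 2.32 and 1.48 with vehicle and 0.168, 0.179 and 0.433 with IL-4 in Pparg+/- cultures, and 2.31, 2.33 and 2.35 against 0.116, 0.35 and 0.172 in Pparg fl/- cultures. With RSG it was 2.45, 3.09 and 2.59 against 0.481, 0.0992 and 0.162, and 2.43, 2.06 and 2.06 against 0.341, 0.228 and 0.199. The highest array with IL-4 stayed far below the lowest without it. Aldoc fell, with log2 changes of −2.94, −3.61, −3.77 and −3.13 (SE 0.51; 7.68-, 12.2-, 13.7- and 8.73-fold; limma adjusted p = 0.00031, 3.3e-05, 2.7e-05 and 0.00017). Of the 2 Aldoc probe sets, both fell in all 4 comparisons, but their sizes differed: the one with the smaller SE (0.27) had changes of −2.57, −2.85, −2.54 and −2.77, and the other (SE 0.90) had −3.32, −4.36, −5.0 and −3.48. Aldoa, the isoform of most tissues, went from 0.755 to 1.02 without IL-4 to 0.973 to 1.26 with it, changes of 0.31 to 0.52 that stayed under 1.5-fold. In Pparg+/- cultures with vehicle 2 of its 5 probe sets rose, and the 5 ranged from 0.23 to 0.69. No Aldoa probe set was called in the other comparisons. Tpi1, triosephosphate isomerase, changed by 0.05 to 0.16 and was not called.

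**Figure D2:**
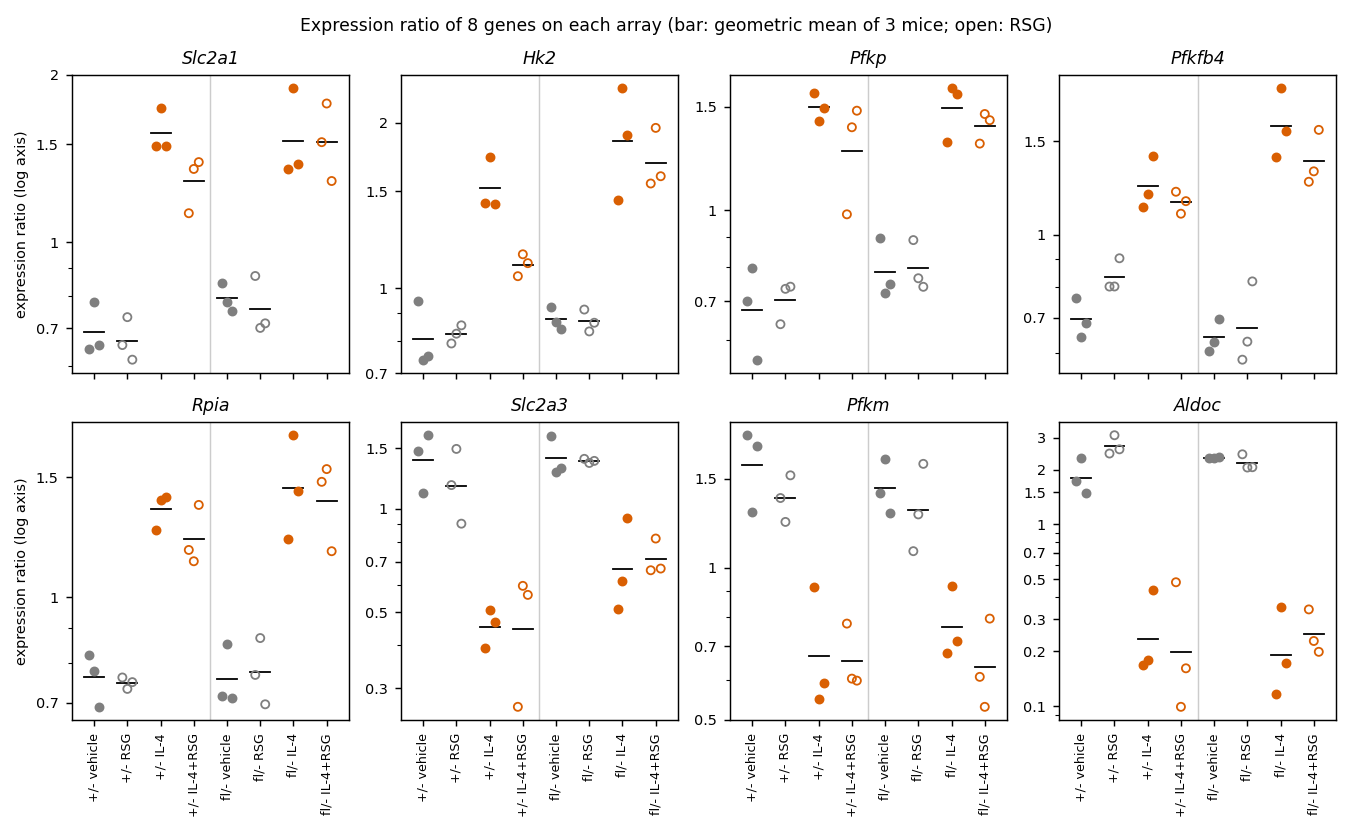
Expression ratio on each of 24 arrays (y axis, log scale) for 8 genes; grey, without IL-4; orange, with IL-4; open symbols, RSG; bars, geometric mean of 3 mice. Slc2a1, Hk2, Pfkp, Pfkfb4 and Rpia were higher with IL-4 in both genotypes and Slc2a3, Pfkm and Aldoc lower, and the open orange symbols of Hk2 in Pparg+/- cultures (1.05 to 1.15) lay below those of Pparg fl/- cultures (1.55 to 1.96).

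In lower glycolysis, from glyceraldehyde 3-phosphate to pyruvate, 1 of 5 genes measured was called in Pparg+/- cultures with vehicle and 0 of 5 in the other 3 comparisons, where 13.4% to 16.8% of all genes were called, so that counts this small are near the background. Gapdh stood between 0.09 and 0.31, Pgk1, the first ATP-yielding step, between −0.25 and 0.11, Pgam1 between 0.01 and 0.27 and Pkm, pyruvate kinase, between 0.15 and 0.38, and none of these 4 was called. Their 95% intervals reached from −0.65 to 0.66. Eno2, the neuronal enolase, rose in Pparg+/- cultures with vehicle by 0.60 ± 0.19 (limma adjusted p = 0.03), with ratios of 0.928, 0.647 and 0.83 against 1.17, 1.09 and 1.36. This call was lost without mouse 1, 2, 3 or 6 (log2 0.73, 0.52, 0.54 and 0.60, adjusted p = 0.068, 0.19, 0.21 and 0.055). In the other comparisons Eno2 was at 0.42, 0.35 and 0.48 and was not called.

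Pyruvate can be reduced to lactate and exported or enter the mitochondrion. Ldha, the lactate dehydrogenase subunit of glycolytic tissues, stood at 0.47, 0.11, 0.43 and 0.33, under 1.5-fold throughout, and Ldhb was between −0.05 and 0.19. Slc16a3, the lactate exporter MCT4, was at −0.09, −0.48, −0.46 and −0.44 and was not called. Slc16a1, the monocarboxylate transporter MCT1, rose by 1.48 ± 0.51 in Pparg+/- cultures with vehicle and in Pparg fl/- cultures with RSG (limma adjusted p = 0.046 and 0.047), with ratios of 0.823, 0.312 and 0.42 against 0.921, 2.04 and 1.25, and of 0.33, 0.947 and 0.41 against 1.05, 1.51 and 1.76. With the mouse as a fixed block both calls were lost (adjusted p = 0.053 and 0.054, limma), and with it as a random block they were kept. The first was also lost without mouse 2, 3, 5 or 6 (log2 0.87, 1.44, 1.48 and 1.48, adjusted p = 0.42, 0.23, 0.057 and 0.068) and the second without mouse 3, 4, 5 or 6 (1.48, 1.39, 1.88 and 1.17, adjusted p = 0.094, 0.11, 0.065 and 0.28). Of its 2 probe sets, 1 had an SE of 1.03 and was not called, and its ratios were also centred away from 1 as deposited. The other, with an SE of 0.21, rose in all 4 comparisons by 1.28, 0.89, 1.04 and 1.01 (limma over all probe sets, adjusted p = 0.00023, 0.005, 0.0018 and 0.002).

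Pyruvate dehydrogenase kinases hold back the entry of pyruvate into the citric acid cycle. Pdk1 fell with IL-4 in the cultures with RSG, with changes of −0.72 ± 0.15 in Pparg+/- and −0.73 ± 0.15 in Pparg fl/- cultures (1.65- and 1.66-fold; limma adjusted p = 0.0018 and 0.0014). Its ratios were 1.24, 1.23 and 1.07 against 0.778, 0.638 and 0.735, and 1.41, 1.19 and 1.04 against 0.73, 0.766 and 0.688. With vehicle it stood at −0.45 and −0.50 (adjusted p = 0.038 and 0.02, limma), under 1.5-fold, and all 12 arrays with IL-4 lay below the other 12. Without mouse 2 the call in Pparg+/- cultures was lost (−0.61, adjusted p = 0.06, limma). Pdk2 and Pdk3 were not called, with changes from −0.06 to 0.71 and from −0.26 to 0.17.

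In the pentose phosphate pathway 1 of 6 genes measured was called in each comparison, a share near the 13.4% to 16.8% of all genes. Rpia, ribose 5-phosphate isomerase, had ratios of 0.823, 0.779 and 0.69 with vehicle and 1.25, 1.39 and 1.4 with IL-4 in Pparg+/- cultures, and 0.715, 0.855 and 0.711 against 1.22, 1.73 and 1.43 in Pparg fl/- cultures. With RSG they were 0.762, 0.733 and 0.75 against 1.17, 1.13 and 1.37, and 0.769, 0.871 and 0.696 against 1.48, 1.54 and 1.17. All 12 arrays with IL-4 lay above the other 12. Rpia rose by 0.82, 0.93, 0.70 and 0.84 (SE 0.14; limma adjusted p = 2e-04, 4.8e-05, 0.001 and 0.00016). Like Hk2, Pfkm, Pfkfb4 and Eno2, Rpia was read by 1 probe set, so probe sets cannot be compared for these genes.

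The other pentose phosphate genes stayed under 1.5-fold as the mean of their probe sets. Pgd, the NADPH-yielding 6-phosphogluconate dehydrogenase, was at −0.26, −0.25, −0.45 and −0.33, with adjusted p of 0.0054 and 0.033 in the 2 comparisons with RSG (limma). Of its 4 probe sets 1 fell in Pparg fl/- cultures with RSG, where the 4 ranged from −0.59 to −0.22. Taldo1, transaldolase, was at −0.15, −0.47, −0.29 and −0.32, and Pgls, the lactonase, between 0.12 and 0.32. Tkt, transketolase, stood between 0.18 and 0.51, with a disagreement between its 3 probe sets: 1 rose by 0.93, 0.88 and 0.59 in the first 3 comparisons, and the other two stood between −0.38 and 0.37 without a call. Rpe, ribulose phosphate epimerase, stood between −0.09 and 0.35 as a mean of 3 probe sets, of which 2 rose in Pparg+/- cultures with vehicle by 0.64 and the third, with a wide spread, stood at −1.55. In Pparg+/- cultures with RSG 1 Rpe probe set rose, and the 3 ranged from −0.27 to 0.69.

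**Figure D3:**
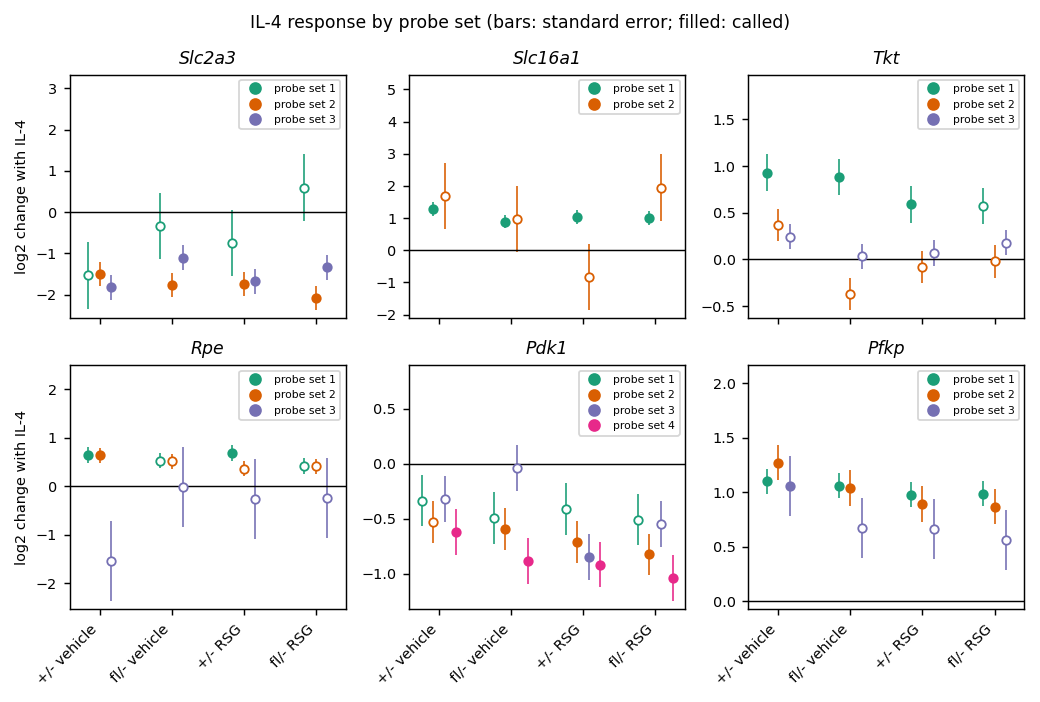
Log2 change with IL-4 (y axis; bars, standard error; filled, called among all probe sets) of the single probe sets of 6 genes in 4 comparisons. The probe sets of Pfkp lay on 1 side of 0, those of Pdk1 all below it, and 1 probe set each of Slc2a3, Slc16a1 and Rpe had a wider spread than the others of its gene.

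Across the 4 comparisons, 6 of 31 genes (19.4%) were called the same way in all of them, beside 8.7% of all genes: Slc2a1, Pfkp and Rpia rose and Slc2a3, Pfkm and Aldoc fell. Counted over any of the 4, the share was 38.7% (12 genes), beside 24.8%. All 12 arrays with IL-4 lay above the other 12 for 5 genes (16.1%, beside 5.87% of all genes) and below for 3 genes (9.68%, beside 4.96%). The vehicle and RSG cultures came from the same mice, so these comparisons are not independent of each other. The comparisons in the 2 genotypes used different mice and arrays. Over the 31 genes, their log2 changes with vehicle had a Pearson r of 0.916 and a Spearman rho of 0.809, and with RSG 0.931 and 0.894, where r over all genes was 0.659 and 0.655. This is a description across genes read by the same probe sets, and genes are not independent replicates. Whether IL-4 acted differently in the 2 genotypes was tested for each gene with vehicle, and no gene of the array passed in limma (0 of 17738 called, against 881 genes with an unadjusted p under 0.05). The 2 pathway genes with an unadjusted p under 0.05 were Pfkfb3 (a difference of 0.76, 95% interval 0.14 to 1.38) and Pfkfb4 (0.49, 0.07 to 0.91), both more positive in Pparg fl/- cultures (adjusted p = 0.91 and 0.92, limma).

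The windows upstream of the transcription start are shown for the 5 genes that rose in at least 3 comparisons and for Aldoc, which had the largest fall. They are the 250 bases before the start from RefSeq (GRCm38.p6), 5′ to 3′ on the strand of the gene. Capitals mark the core ACGTG on either strand and its variant form GCGTG, the letters bound by the hypoxia-inducible factor HIF-1, a known activator of glycolytic genes (a match on the opposite strand reads CACGT, or for the variant form CACGC).
Slc2a1, chr4:119108495-119108744, plus strand: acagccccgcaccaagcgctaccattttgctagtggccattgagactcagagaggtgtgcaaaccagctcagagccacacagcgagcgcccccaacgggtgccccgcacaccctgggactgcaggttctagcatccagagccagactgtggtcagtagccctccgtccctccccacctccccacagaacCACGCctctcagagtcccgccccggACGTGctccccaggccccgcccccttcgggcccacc
Hk2, chr6:82774455-82774704, minus strand: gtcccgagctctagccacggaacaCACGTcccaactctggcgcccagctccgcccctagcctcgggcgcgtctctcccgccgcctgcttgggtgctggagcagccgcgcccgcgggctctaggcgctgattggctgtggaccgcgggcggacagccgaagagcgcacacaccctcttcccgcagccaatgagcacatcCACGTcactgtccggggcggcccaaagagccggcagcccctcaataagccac
Pfkp, chr13:6648772-6649021, minus strand: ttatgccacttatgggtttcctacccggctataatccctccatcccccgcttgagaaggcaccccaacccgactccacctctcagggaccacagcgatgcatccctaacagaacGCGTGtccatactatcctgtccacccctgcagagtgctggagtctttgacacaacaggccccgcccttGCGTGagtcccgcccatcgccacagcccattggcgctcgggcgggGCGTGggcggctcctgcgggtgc
Pfkfb4, chr9:108991652-108991901, plus strand: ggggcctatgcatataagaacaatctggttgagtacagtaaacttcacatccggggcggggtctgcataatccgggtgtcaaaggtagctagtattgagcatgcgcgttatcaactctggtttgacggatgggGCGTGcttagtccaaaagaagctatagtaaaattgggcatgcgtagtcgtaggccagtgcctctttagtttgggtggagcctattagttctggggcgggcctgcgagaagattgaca
Rpia, chr6:70792176-70792425, minus strand: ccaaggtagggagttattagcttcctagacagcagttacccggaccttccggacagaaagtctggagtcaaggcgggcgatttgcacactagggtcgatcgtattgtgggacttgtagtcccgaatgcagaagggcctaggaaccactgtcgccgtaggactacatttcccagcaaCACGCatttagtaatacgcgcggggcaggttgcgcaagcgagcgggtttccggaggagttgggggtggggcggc
Aldoc, chr11:78322823-78323072, plus strand: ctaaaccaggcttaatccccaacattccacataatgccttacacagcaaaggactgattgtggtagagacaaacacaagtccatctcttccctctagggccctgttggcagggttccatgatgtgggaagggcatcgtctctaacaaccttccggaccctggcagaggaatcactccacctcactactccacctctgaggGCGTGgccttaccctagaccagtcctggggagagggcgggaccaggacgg

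RefSeq windows were found for 33 of the 34 genes, with 48 windows in all because some genes have several starts; Slc2a3 had none. At least 1 of these cores stood in 37 of the 48 windows (77.1%), and in 38.6% of 32851 windows of the same length over all genes. The letters are rich in C and G, and the median GC content was 60% in the windows of the list and 52.4% over all. Windows of genes that rose, fell or were not called all held them: Hk2 and Slc2a1 had 2 matches, Pfkp 3, a window of Aldoc 1, and a window of Ldha, which was not called, had 5 matches of the first core. The first core lies within the E-box CACGTG, which stood in 5 of 48 windows and in 6.02% of all. An E-box counts as a match on each strand. The Ldha window with 5 matches held 2 E-boxes, so its matches stand at fewer sites than 5. The palindromic motif of STAT6, the factor activated by IL-4, stood in 4 of 48 windows (8.33%; Hk3, Gpi1, Ldha and Pgd), and in 5.85% of all windows. Hk3, Ldha and Pgd were not called, and Gpi1 was not analysed here. The related STAT motif with 3 bases between its arms stood in 2 of 48 windows (4.17%) and in 7.02% of all windows. These were 1 window of Aldoc and 1 of Pfkm, genes that fell in all 4 comparisons. The Aldoc window with this motif (chr11:78323948-78324197) is a further one, not printed above. AGGTCA, the core element of nuclear receptors, stood in 6 of 48 windows (12.5%) and in 14.0% of all windows. These matches describe letters in 250 bases, and nothing was measured here about binding.

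RSG, the PPARγ agonist, called no gene of the pathway in any of 4 comparisons. Over all genes it called 0.0226% in Pparg+/- cultures without IL-4 and 0.372% with IL-4, and 0% and 0.00564% in Pparg fl/- cultures, so counts near 0 were also the background. An unadjusted p under 0.05 was found for 0, 2, 0 and 0 pathway genes (Hk2 and Hk3), beside 5.46%, 7.73%, 4.1% and 4.71% of all genes, and the methods' t-test also called 0. The median absolute log2 change of the 31 genes was 0.10, 0.15, 0.06 and 0.10, beside 0.19, 0.21, 0.17 and 0.19 over all genes. For 22, 19, 22 and 24 of the 31 genes the 95% interval lay within 1.5-fold in either direction. The extremes were Pfkfb3 (−0.39) and Slc16a1 (0.74) in Pparg+/- cultures without IL-4, Slc16a1 (−0.65) and Rpe (0.47) with IL-4, Pgk1 (−0.25) and Pdk2 (0.66) in Pparg fl/- cultures without IL-4, and Pdk3 (−0.35) and Slc16a1 (0.88) with IL-4. In Pparg+/- cultures with IL-4 the median change of the 31 genes was −0.13, beside −0.02 over all genes. In these cultures 4 of the 31 genes, read on the same arrays and not independent of each other, stood above 0. Hk3 had ratios of 1.12, 1.2 and 1.12 with vehicle there and 0.979, 0.944 and 1.01 with RSG, without overlap, and a change of −0.23 ± 0.11 (limma adjusted p = 0.62). The difference of the RSG change between genotypes with IL-4 had an unadjusted p under 0.05 for Slc16a1 alone (1.53, 95% interval 0.007 to 3.05, limma adjusted p = 1). For Slc16a1 this difference was 3.05 in the probe set with the wide spread and 0.0035 in the other, and the 3 Slc16a1 extremes above were 1.23, −1.30 and 1.76 in the former and 0.25, 0.005 and 0.008 in the latter.

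**Figure D4:**
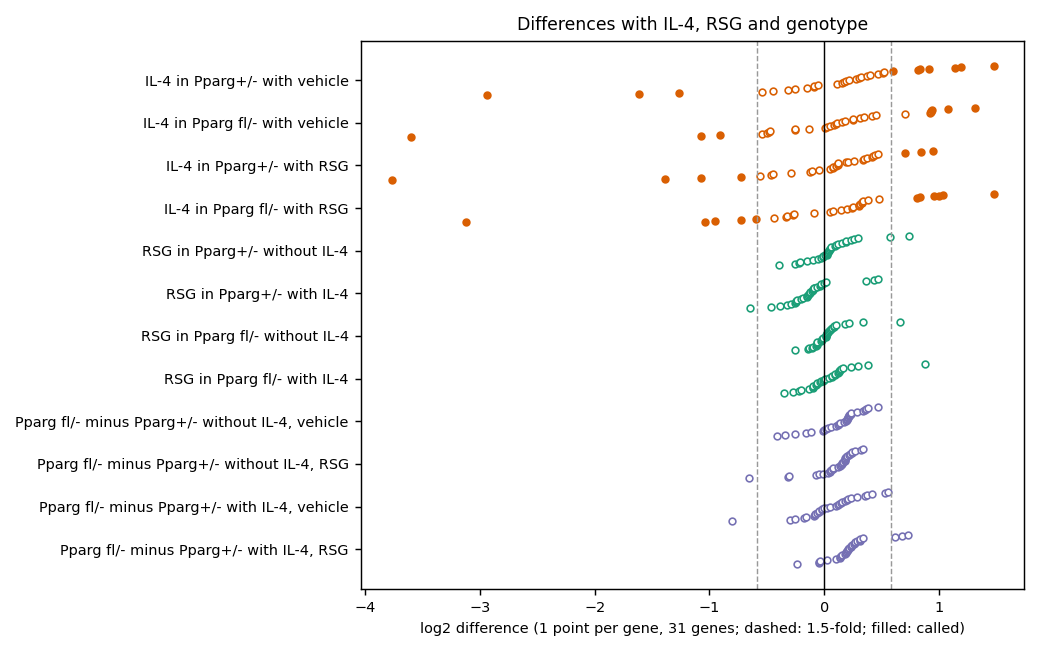
Log2 difference of each of 31 genes (points; x axis) in 12 comparisons: orange, IL-4; green, RSG; purple, genotype; filled points are called and dashed lines mark 1.5-fold. Filled points occur in the 4 IL-4 comparisons, with 10, 8, 7 and 11 genes, and the RSG and genotype comparisons have none.

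Genotype called no gene of the pathway in its 4 comparisons either. Over all genes the share was 0% with vehicle, both without and with IL-4, 0.0113% with RSG alone, and 0.575% with IL-4 and RSG. At an unadjusted p under 0.05, 3, 1, 3 and 6 of 31 pathway genes were found in the same order, beside 9.27%, 7.98%, 9.07% and 11.3% of all genes, and the counts up to 3 are near that background. With vehicle and no IL-4 these were Pfkl (0.47 ± 0.14, Pparg fl/- minus Pparg+/-), Pkm and Tkt, with limma adjusted p of 0.37, 0.41 and 0.47. With IL-4 and vehicle it was Pfkfb4 (0.37 ± 0.14, adjusted p = 0.52, limma). With RSG alone these were Hk3 (0.34), Pfkl (0.32) and Pfkfb4 (−0.31), and with IL-4 and RSG they were Slc2a3 (0.68), Hk2 (0.62), Pgls (0.31), Pkm (0.31), Hk3 (0.29) and Pgd (0.27). The 95% interval lay within 1.5-fold for 17, 19, 20 and 18 of the 31 genes.

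Hk2 came closest to a call outside the IL-4 comparisons. In Pparg+/- cultures with IL-4 its ratio was 1.43, 1.73 and 1.42 with vehicle and 1.05, 1.15 and 1.11 with RSG, so that every culture with RSG lay below every vehicle culture, a change of −0.46 ± 0.15 (limma adjusted p = 0.29). In Pparg fl/- cultures with IL-4 it was 1.45, 2.31 and 1.9 against 1.55, 1.96 and 1.6, with overlap and a change of −0.13 ± 0.15. Without IL-4 its RSG change was 0.03 and −0.01. Between genotypes, Hk2 with IL-4 and RSG was 0.62 ± 0.15 higher in Pparg fl/- cultures (1.53-fold, limma adjusted p = 0.062), with no overlap. This passed both thresholds in 3 of 19 alternative settings, whose adjusted p ran from 0.016 to 0.25. One of these left out the IL-4 vehicle array of mouse 4, which is in neither group and enters through the common spread (adjusted p = 0.016, limma), and another left out mouse 4 (0.68, adjusted p = 0.026). The RSG change with IL-4 minus that without in Pparg+/- cultures was −0.49 (95% interval −0.93 to −0.06, adjusted p = 0.98, limma), and the difference of the RSG change between genotypes with IL-4 was 0.33 (−0.10 to 0.77, adjusted p = 1). These comparisons share arrays.

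Of 47 further genes of glucose metabolism, 42 were measured, and 7 rose and 3 fell with IL-4 in Pparg+/- cultures with vehicle, 5 and 4 in Pparg fl/- cultures with vehicle, 3 and 5 in Pparg+/- and 6 and 4 in Pparg fl/- cultures with RSG, beside the shares of all genes given above. The median change was 0.01, 0.13, 0.15 and 0.06. The largest change was that of Fbp1, fructose 1,6-bisphosphatase, which runs the phosphofructokinase step in reverse. Its ratio lay between 0.162 and 0.524 on arrays without IL-4 and between 1.48 and 12.6 with it. Fbp1 rose by 4.01, 4.62, 3.45 and 3.71 (SE 0.46; 16.1-, 24.5-, 10.9- and 13.1-fold; limma adjusted p = 2.9e-06, 5.1e-07, 2e-05 and 7.5e-06).

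G6pc3, the widely expressed glucose 6-phosphatase, rose in all 4 comparisons by 0.73, 0.99, 0.84 and 0.93, and Slc37a4, the transporter that feeds it, rose by 0.61, 0.63 and 0.82 in all but Pparg+/- cultures with RSG (0.30). Pdp1, the phosphatase that opposes the pyruvate dehydrogenase kinases, rose by 0.71, 0.69, 0.77 and 0.67. Pdk4, a further kinase of this step, fell in Pparg fl/- cultures with vehicle and with RSG (−3.14 and −3.03), and was at −1.22 and −1.79 in Pparg+/- cultures, not called (SE 0.81). The difference between genotypes with vehicle was −1.92 (95% interval −4.31 to 0.48, adjusted p = 1, limma). Gpd1, which draws dihydroxyacetone phosphate into glycerol phosphate, rose in both vehicle comparisons by 1.39 and 1.37. Khk, fructokinase, fell in all 4 (−0.81 to −0.62), as did Prps2, which makes phosphoribosyl pyrophosphate from ribose 5-phosphate (−0.81 to −0.59).

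One further transporter gene was called with RSG and with genotype. Slc2a6, which encodes GLUT6, had ratios of 0.65 to 1.03 in Pparg+/- cultures with IL-4 and vehicle and 0.194 to 0.363 with IL-4 and RSG, without overlap. It fell with RSG (−1.64 ± 0.29, 3.12-fold, limma adjusted p = 0.0099). In Pparg fl/- cultures with IL-4 and RSG its ratio was 0.753 to 1.17, so that Slc2a6 was 1.83 ± 0.29 higher there than in Pparg+/- cultures (3.54-fold, limma adjusted p = 0.0069). The difference of its RSG change between genotypes with IL-4 was 1.28 ± 0.41 (adjusted p = 0.88, limma).

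Targets of HIF-1 outside glycolysis, with Hif1a itself, made a list of 15 genes, all measured. With IL-4, 6 rose and 2 fell in Pparg+/- cultures with vehicle, against 8.29% and 6.84% of all genes. In each of the other 3 comparisons 5 rose and 2 fell, against 7.05% to 8.8% and 6.37% to 8.01% of all genes. The list had medians of 0.57, 0.41, 0.27 and 0.41. Vegfa, the endothelial growth factor, rose by 1.32, 1.89, 1.10 and 1.53, and Ero1a, an oxidase of the endoplasmic reticulum, by 1.81, 1.64, 1.62 and 1.71. Ndrg1 fell in all 4 comparisons (−0.99, −0.95, −1.32 and −1.14), as did P4ha2, a collagen prolyl hydroxylase (−1.13, −1.73, −0.88 and −1.23). Hif1a was at 0.57, 0.41, 0.33 and 0.22 and was not called.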

How the data were processed

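Affymetrix mouse genome arrays were hybridized with RNA of cultured macrophages. The values deposited by the authors are ratios: GC-RMA signals from GeneSpring, divided by the 50th percentile of the chip and then by the median of the probe set. A last division by vehicle controls, described in the methods, was not seen in the values. The submitters' processing notes name GCOS. The 31 genes were read by 67 probe sets kept, of which 1 had a median ratio away from 1, one of Slc16a1.

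Ratios were floored at 0.01 and log2 transformed. Of 45101 probe sets, 61 controls were removed (the Gapdh ones were kept), and 1688 that reached the array median on fewer than 3 arrays. Symbols came from the platform annotation updated to RefSeq by gene identifier. Probe sets with 1 symbol were averaged to 17738 genes. Precision is limited by having 3 arrays a group.

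Log2 ratios of all 24 arrays were fitted in limma 3.58.1 (R 4.3.3) with 8 group means (eBayes with a trend). Benjamini-Hochberg adjustment was over all genes. The methods' unpaired t-test was an alternative. Same-numbered arrays came from the same mouse by label; their residuals correlated at −0.05 to 0.0525, and at −0.0499 to 0.0574 between mice. All members are named; called ones with the largest changes are given array by array. The fit was checked on simulated data with the spread of each gene, where 100 genes per size of change were shifted. Of 2-fold and 4-fold changes, 34% to 49% and 51% to 74% were called in comparisons of 2 groups. In comparisons of responses these shares were 22% to 24% and 49% to 53%, so changes of these sizes can be missed. The shifted genes were drawn from all genes and no others changed, unlike in the cultures with IL-4. These shares are thus not the power for IL-4 or for the pathway genes. The members and lists were chosen with earlier results of these data known.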

Additional observations from a re-analysis of the deposited data

How the results depend on the processing

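Each of 15 counts of pathway genes called was recomputed under up to 20 alternative settings (filter, centring, normalization, floor, summary of probe sets, test, mouse block, threshold and arrays left out). Of 293 values, 210 were 0 in both the main result and the alternative and say nothing about stability. Over all 293, 9 moved by more than 1.5 times, and no called gene changed sign in 720 recomputed values, of which 70 lost their call. The methods' t-test called 3 genes in Pparg fl/- cultures with vehicle and 6 with RSG, in place of 8 and 11. With a 2-fold threshold the IL-4 counts were 6 and 4 with vehicle and 3 and 4 with RSG (Pparg+/- first), by construction. The genotype comparison with IL-4 and RSG gave 1 gene, Hk2, with the probe set of smallest spread, without mouse 4, and without the IL-4 vehicle array of mouse 4. Hk2 has 1 probe set, so in the first and last of these settings its change stayed at 0.62. The adjusted p alone moved there (0.037 and 0.016, limma). The part of the spread and of the adjustment over genes in this was not tested. Leaving out 1 mouse gave 8 to 10, 7 to 10, 6 to 8 and 8 to 11 genes in the IL-4 comparisons, 0 to 1 in that genotype comparison and 0 in the others. With the mouse as a fixed replicate block, 9, 8, 7 and 10 genes were called with IL-4 and 0 with RSG. The fixed block changed no call other than those of Slc16a1. The 3 mice a group limit what can be called.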
